A study of Mus musculus with 6 samples.

Results

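Antisense RNA and long noncoding RNA features were followed through an eCLIP experiment on mouse Gtsf1. The members were the features that the deposited files class as asRNA or lncRNA and that had a mean of at least 1 RPM (reads scaled by the library total, the files' own unit) over the 4 crosslinked libraries. Of 3317 features of these classes with any read (3044 asRNA and 273 lncRNA), 242 were members (208 asRNA and 34 lncRNA), and 3075 lay under 1 RPM. The rule also left out 2 abundant nuclear lncRNA genes, although no feature of these classes carried their names. Just inside the threshold were 4930432B10Rik-2 and 1600020E01Rik-8, both with a mean of 1.04 RPM, and just outside were A130014A01Rik at 0.998 and 4930570B17Rik at 0.977. The members were 242 of 1753368 annotated features with reads in the series, and 242 of the 39872 features of all classes that reached 1 RPM.

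The members belonged to 162 genes, since the files list isoforms of a gene as separate features. In 41 genes several features were members, 121 features in all, with at most 11 for 1 gene (E130307A14Rik). Such features share reads, which the files split among them in equal fractions, and 18 members had the same counts as another member in every library. They are therefore not independent of each other.

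Gtsf1 (also called Asterix) is a zinc-finger protein that works with Piwi proteins and piRNAs, and in this pathway short RNAs guide the silencing of transposons in the germ line. In eCLIP, ultraviolet light joins RNA to the proteins it touches, the protein is captured, and the RNA that comes with it is sequenced. P19 is a mouse embryonal carcinoma line that grows as undifferentiated cells. All 6 libraries came from P19 cells transiently transfected with mouse Gtsf1 carrying a TEV-Strep tag at its C terminus, driven in the vector pEF by the EF-1alpha promoter, and taken at 48 hours. The 2 crosslinked inputs and the 2 crosslinked pull-downs on MagStrep XT beads came from cells irradiated at 254 nm with 400 mJ, and the 1 non-crosslinked input and 1 non-crosslinked pull-down came from cells without irradiation. None of the 6 libraries came from cells without the tagged protein. The labels do not say whether libraries of 1 group came from separate cultures, so p-values measure only the spread between these libraries, which may be technical.

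Antisense RNAs are transcribed from the strand opposite another gene, and long noncoding RNAs are long transcripts that are not translated into protein. Some hold small RNAs in their introns, some act in cis on neighbouring genes, as at imprinted loci, and for many no function is known. Most are rare in the cell, so reads on them are few, and reads on an antisense gene can be told from reads on its partner only where counting uses the strand. Whether strand was used here is not given in the sources used here.

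Of the 197 genes of these classes that reached 1 RPM when their features were summed, 136 matched a RefSeq gene of the mouse assembly GRCm38.p6, which is the mm10 build of the files. RefSeq gives 2 of them, A430057M04Rik and Ndufb1-ps (there Ndufb1), as protein-coding genes. Of the matched genes, 99 (72.8%) overlapped a protein-coding gene, 86 of 110 in the asRNA class and 13 of 26 in the lncRNA class. The span of the matched genes had a median of 22.4 kb and ran from 435 bases for Snhg9 to 362 kb.

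The start regions of 5 genes on which the results turn are printed here to show what each transcript begins with. All but the last were higher in the crosslinked pull-down than in the input, and the last, Snhg9, was lower; 4933424L21Rik was chosen after its values were seen. Each run is 300 bases of RefSeq sequence (GRCm38.p6), 5′ to 3′ on the strand of the gene, with the 250 bases before the annotated start in lower case and the first 50 bases from the start in capitals.
1700094J05Rik: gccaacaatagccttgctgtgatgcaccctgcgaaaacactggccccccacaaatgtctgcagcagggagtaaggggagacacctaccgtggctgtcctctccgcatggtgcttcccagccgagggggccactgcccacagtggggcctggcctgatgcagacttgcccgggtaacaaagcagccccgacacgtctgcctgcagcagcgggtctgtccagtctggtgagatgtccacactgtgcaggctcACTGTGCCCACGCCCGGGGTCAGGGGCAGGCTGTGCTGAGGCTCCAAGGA
4831440D22Rik: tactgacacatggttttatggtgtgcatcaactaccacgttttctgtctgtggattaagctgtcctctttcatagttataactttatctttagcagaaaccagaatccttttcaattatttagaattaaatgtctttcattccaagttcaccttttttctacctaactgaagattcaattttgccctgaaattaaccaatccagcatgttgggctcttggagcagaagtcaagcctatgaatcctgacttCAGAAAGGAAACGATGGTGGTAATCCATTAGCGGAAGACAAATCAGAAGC
4933424L21Rik: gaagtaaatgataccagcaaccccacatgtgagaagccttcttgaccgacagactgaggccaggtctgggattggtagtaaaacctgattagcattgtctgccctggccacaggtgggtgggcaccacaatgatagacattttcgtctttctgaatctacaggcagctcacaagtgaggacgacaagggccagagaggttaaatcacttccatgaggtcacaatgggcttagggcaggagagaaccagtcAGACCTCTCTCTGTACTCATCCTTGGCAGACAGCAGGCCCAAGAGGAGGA
Kcnd3os: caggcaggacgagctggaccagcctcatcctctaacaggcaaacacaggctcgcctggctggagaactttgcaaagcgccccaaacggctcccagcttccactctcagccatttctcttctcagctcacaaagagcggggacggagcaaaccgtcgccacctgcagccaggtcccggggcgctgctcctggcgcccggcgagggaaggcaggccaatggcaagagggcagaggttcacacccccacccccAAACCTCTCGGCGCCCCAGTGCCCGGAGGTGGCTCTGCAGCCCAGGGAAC
Snhg9: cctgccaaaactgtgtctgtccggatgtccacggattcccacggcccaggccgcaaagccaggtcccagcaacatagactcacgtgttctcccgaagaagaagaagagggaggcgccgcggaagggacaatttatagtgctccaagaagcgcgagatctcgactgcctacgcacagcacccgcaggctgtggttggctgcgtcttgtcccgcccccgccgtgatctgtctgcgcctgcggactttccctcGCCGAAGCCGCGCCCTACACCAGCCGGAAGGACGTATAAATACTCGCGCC

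The 1700094J05Rik window (chr10:76388765-76389064, plus strand) begins a lncRNA that lies wholly within Pcnt, which encodes the centrosome protein pericentrin. The 4831440D22Rik window (chr8:91467714-91468013, minus strand) begins a lncRNA that lies wholly within Fto, a gene for an RNA demethylase. The 4933424L21Rik window (chr11:57649445-57649744, minus strand) begins a lncRNA that overlaps Galnt10. The Kcnd3os window (chr3:105452906-105453205, minus strand) begins a lncRNA that overlaps the potassium channel gene Kcnd3. The Snhg9 window (chr17:24719916-24720215, minus strand) begins the host gene of the small nucleolar RNA Snora78, and the gene overlaps the ribosomal protein gene Rps2. The dinucleotide CG occurred 10 times in the 1700094J05Rik window, 3 times each in those of 4831440D22Rik and 4933424L21Rik, 16 times in that of Kcnd3os and 28 times in that of Snhg9. Over all 32851 start windows of the RefSeq table the median was 7, and over the 165 windows of 108 genes of the members' classes it was 8. The Snhg9 count was reached or undercut by 87.1% of all windows. The G and C content was 37.7% for 4831440D22Rik and 65.3% for Kcnd3os, against a median of 52.7% over all windows and 55% over those of the members' genes.

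The libraries held between 13168593 and 18418166 reads, so that 1 read was worth 0.0543 to 0.0759 RPM. A feature at 1 RPM in a library therefore rests on fewer than 20 reads in that library. The threshold is a mean over the 4 crosslinked libraries, so a feature at it holds more reads in all. Over the members, log2 values of the replicates had a Pearson correlation of 0.963 between the crosslinked inputs and 0.939 between the crosslinked pull-downs, described across features that share libraries. The counts of these replicates varied beyond sampling noise (chi-square over degrees of freedom 4.16 and 4.77). The pre-mRNA feature of the transfected gene, Gtsf1, lay between 46.3 and 49.2 RPM in the 3 inputs. It lay at 102 and 210 RPM in the pull-downs with crosslinking and at 40.6 RPM in the one without. These values are of this feature alone and not of all reads on the gene. Of 10 marker genes of embryonal carcinoma cells, 7 had at least 1 RPM in both crosslinked inputs, and all 10 summed to 148 and 120 RPM there. Neuron markers reached 1 RPM for 3 of 4 genes (all 4 summed to 43.2 and 40.9 RPM), fibroblast markers for 1 of 4, and muscle and germ-line markers for none. In bulk libraries such as these, fewer cells of a type and less RNA per cell cannot be told apart.

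The comparison of crosslinked pull-down with crosslinked input asks which RNAs come with the tagged protein. For members and all other features the edgeR quasi-likelihood test was fitted to the expected counts of the 39872 features, and a feature was called at a Benjamini-Hochberg adjusted p under 0.05. Of the 242 members, 54 (22.3%) were called higher in the pull-down, where the same call took 6.44% of all features tested. They were 44 asRNA and 10 lncRNA features of 46 genes. Called lower were 3 members (1.24%), against 3.5% of all features tested: both B930036N10Rik features and Snhg9. This order of the shares depended on the setting, since DESeq2 called 3 of 240 members lower (1.25%, against 0.624% of the features with an adjusted p) and with a filter of 5 RPM 3 of 42 were called lower (7.14%, against 6.87%). Leaving out crosslinked input 2 gave 6 members called lower (2.48%, against 5.37% of all features tested), and leaving out crosslinked pull-down 1 gave 5 (2.07%, against 2.8%). In the fit of all 4 libraries the remaining 185 members did not pass the test. Both pull-downs lay above both inputs for 73 members (30.2%, against 10.8% of all features tested) and below both for 75 (31.0%, against 57.7%).

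The filter bears on these counts. A feature with an input mean under 1 RPM could become a member only through its pull-downs, and 49 members (20.2%) were of that kind, against 5.9% of all features tested. Of these 49, 40 (81.6%) were called higher, and so were 74.1% of all tested features with such low inputs. Of the other 193 members, 14 (7.25%) were called higher, against 2.2% of the tested features with an input mean of at least 1 RPM. With only the members that had more than 3 reads in both crosslinked inputs, an alternative chosen after seeing the data, 34 of 222 (15.3%) were called higher, against 4.02% of the 38850 tested features with as many reads. A filter of 5 RPM left 42 members, of which 8 (19.05%) were called higher, against 9.29% of the 5928 features tested at that filter. Without any filter no member was called in either direction by edgeR. At an unadjusted p under 0.05, 66 members were higher (27.3%) and 15 lower (6.2%), against 2.92% and 1.51% of all features in that fit. These shares are not alike, since all 242 members reach 1 RPM and most of the 942743 features in that fit do not. In the main fit the same p took 67 of 242 members and 3357 of 39872 features higher. It took 16 of 242 members and 5725 of 39872 features lower.

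**Figure D1:**
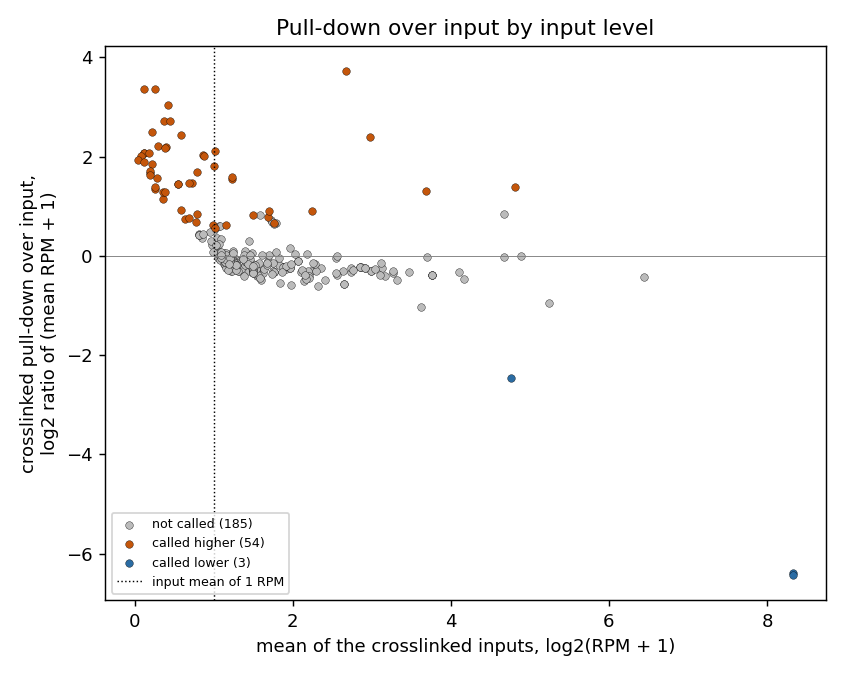
Each point is 1 of the 242 members, with the mean of the 2 crosslinked inputs on the x axis as log2(RPM + 1) and the log2 ratio of crosslinked pull-down over input on the y axis, both from mean RPM + 1. Of the 54 members called higher, 40 lie left of the dotted line, which marks an input mean of 1 RPM, and the 3 called lower lie at high input levels.

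The median member had a log2 ratio of -0.11 on the log2(mean RPM + 1) scale, against -0.20 over all features tested. The asRNA members had a median of -0.13 and the lncRNA members one of 0.36. In the non-crosslinked pair, which has 1 library per group and no test, the medians were -0.26 for the members and -0.41 for all features tested. Centring on all features tested turned the members' median to 0.092, and leaving out crosslinked input 1 turned it to 0.020.

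B930036N10Rik, an antisense RNA gene, held the most reads of any member in the inputs, where levels of different features are ordered by reads and not per length. Its 2 features split the reads of the gene, which summed to 764 and 515 RPM in the crosslinked inputs. The first feature had 382 and 257 RPM there, against 1.43 and 4.27 RPM in the 2 pull-downs. In the non-crosslinked pair it had 400 RPM in the input and 0.873 RPM in the pull-down. It was thus abundant in every input and almost absent from every pull-down, with or without crosslinking. The fitted log2 ratio was -6.70 ± 0.56 (SE) with an adjusted p of 0.000678 by edgeR. It was -6.11 without crosslinked pull-down 1 and -7.72 without crosslinked pull-down 2. Its second feature, B930036N10Rik-2, shares nearly all of these reads.

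Snhg9, the host gene of the H/ACA box snoRNA Snora78, had 24.7 and 27.3 RPM in the crosslinked inputs and 3.35 and 4.49 RPM in the pull-downs. Without crosslinking it had 47.3 RPM in the input and 9.57 RPM in the pull-down. All pull-downs lay below all inputs. The log2 ratio was -2.64 ± 0.21 (SE), with an adjusted p of 0.00055 by edgeR. The snoRNA feature Snora78 itself had 22.2 and 28.7 RPM in the crosslinked inputs, 3.78 and 6.89 RPM in the pull-downs, and without crosslinking 16.3 RPM in the input and 4.71 RPM in the pull-down. The protein-coding gene Rps2 that Snhg9 overlaps had a log2 ratio of -0.35.

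Among the members called higher, Gm11280 (lncRNA) had the highest mean RPM over the crosslinked pull-downs, which pull-down 2 carried. It had 8.70 and 2.06 RPM in the crosslinked inputs against 48.3 and 118 RPM in the pull-downs. Without crosslinking the input had 1.13 RPM and the pull-down 6.15 RPM. All pull-downs lay above all inputs with crosslinking, but the replicates differed from each other several-fold in both groups. The log2 ratio was 4.05 ± 0.73 (SE), with an adjusted p of 0.0184 by edgeR, and it was 3.25 without crosslinked pull-down 2 and 5.41 without crosslinked input 1. The descriptive log2 ratio was 3.72 with crosslinking and 1.75 without.

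4831440D22Rik, the RNA within Fto whose start is printed above, had 27.8 and 26.2 RPM in the crosslinked inputs and 78.7 and 66.6 RPM in the pull-downs. Without crosslinking the input stood at 2.05 RPM and the pull-down at 11.4 RPM. The crosslinked groups did not overlap, and the replicates lay close together. The log2 ratio was 1.52 ± 0.18 (SE), with an adjusted p of 0.00291 by edgeR. Reads on Fto, summed over its exon, intron and pre-mRNA features, had a log2 ratio of -0.34.

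Gm14236 (asRNA) had 5.44 and 8.31 RPM in the crosslinked inputs and 45.3 and 35 RPM in the pull-downs, and without crosslinking 3.75 RPM in the input and 82.0 RPM in the pull-down. Its highest value was thus that of the non-crosslinked pull-down. The log2 ratio with crosslinking was 2.63 ± 0.27 (SE), with an adjusted p of 0.00151 by edgeR. 0610038B21Rik (asRNA) is 1 of 2 member features of a short lncRNA gene of 1523 bases that overlaps Arhgap10. It had 10.4 and 13.3 RPM in the crosslinked inputs and 37.2 and 24.0 RPM in the pull-downs. Without crosslinking it had 4.35 and 31.6 RPM. The crosslinked groups did not overlap, with a log2 ratio of 1.45 ± 0.26 (SE) and an adjusted p of 0.0177 by edgeR, and the non-crosslinked pull-down lay within the range of the crosslinked ones.

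1700094J05Rik, the RNA within Pcnt, had 0.344 and 0.651 RPM in the crosslinked inputs against 5.27 and 8.88 RPM in the pull-downs. The non-crosslinked input held 1 read and the non-crosslinked pull-down none, which allows up to 0.228 RPM. The crosslinked pull-downs, with 85 and 140 reads, were therefore high while the non-crosslinked one was not. The fitted log2 ratio with crosslinking was 3.89 ± 0.40 (SE), a description, since this feature too had an input mean under 1 RPM and became a member only through its pull-downs. Pcnt itself had a log2 ratio of -0.14.

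**Figure D2:**
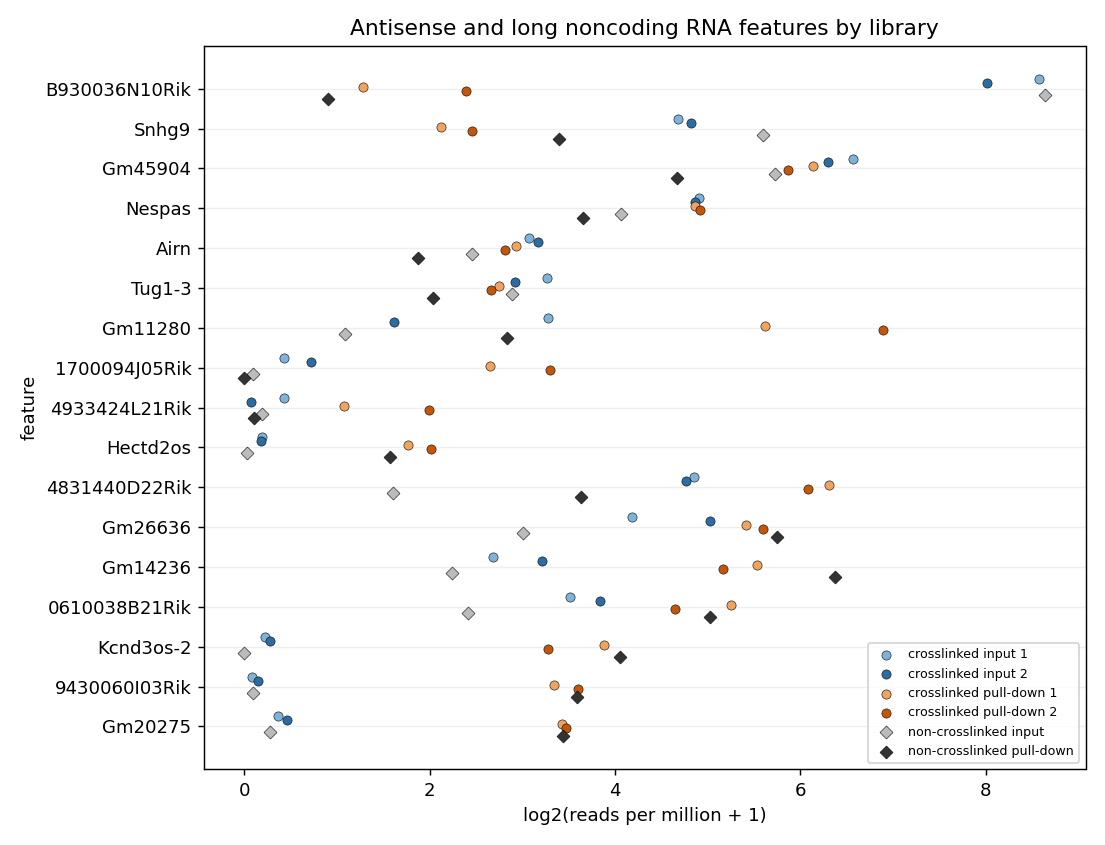
Each row is 1 feature and each point 1 library, with log2(RPM + 1) on the x axis. Circles are crosslinked and diamonds non-crosslinked libraries. B930036N10Rik and Snhg9 have all inputs to the right of all pull-downs, Airn and Nespas have crosslinked libraries close together, and for 9430060I03Rik and Gm20275 the 3 pull-downs coincide.

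The members with the largest fitted ratios were nearly absent from the inputs. 9430060I03Rik, which overlaps the calpain gene Capn10, had 1 and 2 reads in the crosslinked inputs and 9.18 and 11.2 RPM in the pull-downs. Its non-crosslinked pull-down stood at 11.1 RPM, so the 3 pull-downs were alike. The ratio of pooled reads, 325 in the pull-downs and 3 in the inputs, was 122 with a 95% exact counting interval of 41.3 to 593. PCR copies are not separate molecules, so these intervals hold the counting error and nothing else.

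Of the 54 members called higher, 10 had at most 3 reads in each crosslinked input, and their ratios of pooled reads ran from 18.2 (Hectd2os-2) to 122. Gm44686 rested on 94 pull-down reads against 1 input read, a ratio of 106 with an interval of 18.5 to 4214. Gm44284 had a ratio of 58.4 (interval 15.8 to 489) and Gm15564, which overlaps Parp9, one of 42.7 (14.2 to 210). Gm47371 had a ratio of 35.9 (11.9 to 177) and Gm14051, which overlaps the vitamin C transporter gene Slc23a2, one of 33.3 (15.0 to 92.0). Gm34678-2 had a ratio of 18.9 (7.77 to 59.6) and Hectd2os one of 19.5 (8.06 to 61.7). The intervals are wide because the inputs hold 1 to 6 reads in all, and the fitted log2 ratios of these features depend on the prior count of the fit. The fitted log2 ratio of Gm44686 was 6.47, and 8.66 without crosslinked input 1. That of Gm47371 was 5.14, with 4.22 without crosslinked input 1 and 8.67 without crosslinked input 2. All 10 had input means under 1 RPM and became members only through their pull-downs, so these ratios and intervals are a description.

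Kcnd3os-2 had 0.172 and 0.217 RPM in the crosslinked inputs and 13.7 and 8.72 RPM in the pull-downs, with 15.6 RPM in the pull-down without crosslinking and no read in its input. The non-crosslinked pull-down was thus at least 73.4-fold higher than the floor of 3 reads of that input. Gm20275, which overlaps the myosin gene Myo9a, had 0.286 and 0.380 RPM in the crosslinked inputs, 9.74 and 10.1 RPM in the pull-downs, and without crosslinking 0.212 RPM in the input and 9.87 RPM in the pull-down. Both features had pull-downs far above inputs in each condition. 4930587E11Rik-2 had 0.344 and 0.244 RPM in the crosslinked inputs, 6.76 and 8.12 RPM in the pull-downs; without crosslinking its pull-down had 7.33 RPM. Gm15938 had 0.458 and 0.271 RPM in the crosslinked inputs, 7.57 and 8.28 RPM in the pull-downs; without crosslinking its pull-down had 7.21 RPM. For these 4 features the fitted log2 ratios lay between 4.51 and 5.88. All 4 had an input mean under 1 RPM and so became members only through their pull-downs, which makes these ratios a description. The others named by size were Gm36975, Gm16725, Gm31243-2, Gm15564-2 and Gm47106, with fitted log2 ratios between 4.04 and 4.76. These 5 too had input means under 1 RPM and became members only through their pull-downs. Their ratios rest on few input reads: without crosslinked input 1 they ran from 3.35 (Gm16725) to 5.40 (Gm15564-2), and without crosslinked input 2 from 3.52 (Gm31243-2) to 8.98 (Gm36975). In Gm16725 the pull-downs stood apart from each other, at 4.78 and 1.64 RPM, and DESeq2 did not call it (adjusted p 0.232).

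The non-crosslinked pair shows what the beads and the protein retained without ultraviolet light. In that pair, 46 members (19%) had a log2 ratio of at least 1, against 5.26% of all features tested, and 10 members (4.13%) had one of -1 or less, against 6.05%. Of the 54 members called higher with crosslinking, 39 (72.2%) also reached a log2 ratio of 1 in the non-crosslinked pair, as did 68.6% of all features called higher. The median log2 ratio of the 54 was 1.61 with crosslinking and 1.76 without, and over all features called higher it was 1.69 and 1.56. In 19 of the 54 (35.2%) both crosslinked pairs exceeded the non-crosslinked ratio, as they did in 43.6% of all features called higher. In 2 members (0.826%) both crosslinked log2 ratios exceeded the non-crosslinked one by at least 1, against 1.3% of all features tested. These were 1700094J05Rik and the lncRNA 4632427E13Rik, and the latter was not called.

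The difference between the crosslinked and the non-crosslinked ratio was tested as an interaction in a fit of all 6 libraries, an alternative chosen after seeing the data in which each lone non-crosslinked library is assumed to vary like the crosslinked ones. By edgeR no member passed, where the share over all features tested was 0.0%, and at an unadjusted p under 0.05 there were 12 members (4.96%, against 11.6% of all features tested) with a higher and 20 (8.26%, against 2.03%) with a lower crosslinked ratio. For Gm14236 the crosslinked log2 ratio was lower by 1.92 ± 0.48 (SE), with an unadjusted p of 0.00607 and an adjusted p of 0.335. For Gm11280 the difference was 1.52 ± 1.43 (SE), with an adjusted p of 0.62.

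**Figure D3:**
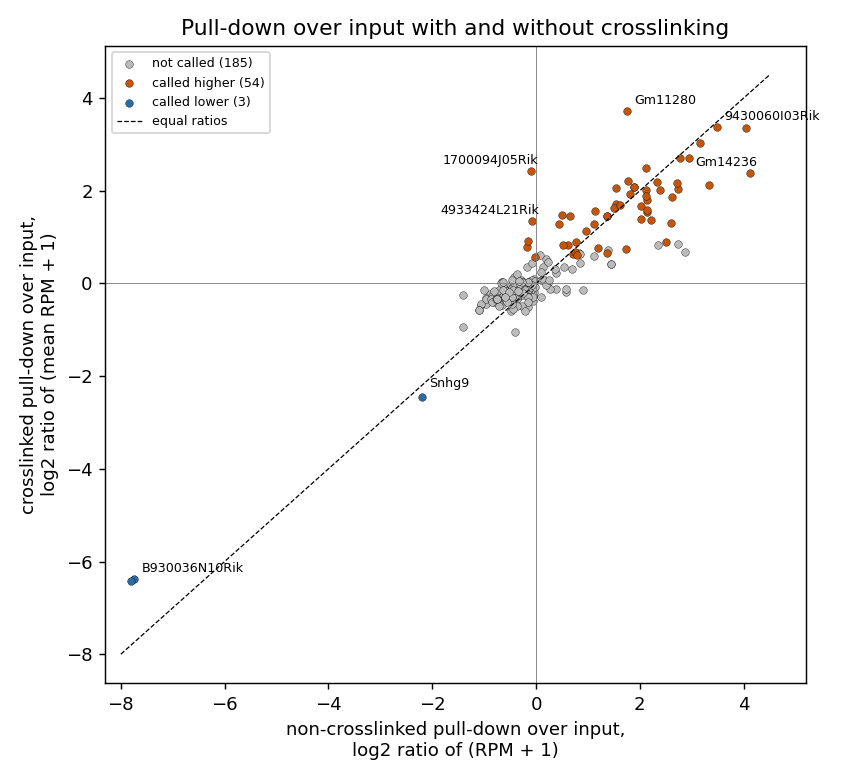
Each point is 1 member, with the log2 ratio of pull-down over input in the non-crosslinked pair on the x axis and in the crosslinked libraries on the y axis, from RPM + 1. Most members called higher lie right of 0 as well as above it, whereas 1700094J05Rik and 4933424L21Rik lie just left of 0.

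The levels in the inputs are given as a description and without calls, since there was 1 non-crosslinked input. In the fit of all 6 libraries the median log2 ratio of crosslinked over non-crosslinked input was 0.92 for the members. Over all features tested it was 0.83. The non-crosslinked input lay below both crosslinked inputs for 214 members (88.4%), against 86.5% of all features tested. The non-crosslinked pull-down lay below both crosslinked pull-downs for 205 members (84.7%, against 86.6%). 4831440D22Rik, with the values given above, was among the members below, while Snhg9 was higher in the non-crosslinked input than in both crosslinked ones. rRNA took 9862464 of 13078953 annotated reads in the non-crosslinked input and 10350709 of 16242180 and 11165595 of 16786426 in the crosslinked ones, and its part in these values was not tested.

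The RNAs with known roles were looked up in 7 lists. Of these 7 lists of named long noncoding RNAs, those of X inactivation, microRNA hosts and pluripotency had no member among 6, 17 and 43 symbols. Only 1, 0 and 1 of these symbols had any asRNA or lncRNA feature, so the others have no level in these classes. The imprinted list had features for 4 of 13 symbols and members for 2 (Airn and Nespas). The list of chromatin, nuclear body and scaffold RNAs had features for 4 of 20 and members for 2 (Tug1 and Airn). That of RNAs divergent or antisense to developmental genes had features for 10 of 19 and members for 2 (Wt1os and Emx2os). The snoRNA host list had a feature for 1 of 29, Snhg9, which was a member and was called lower. No other member of these lists was called in either direction, where the calls took 6.44% (higher) and 3.5% (lower) of all features tested.

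Nespas, an antisense transcript of the imprinted Gnas locus, had 55.1 and 53.3 RPM in the crosslinked inputs with its features summed. The feature named Nespas, 1 of 3 member features, had 29.1 and 28.2 RPM there and 28.2 and 29.3 RPM in the pull-downs. Without crosslinking it had 15.8 and 11.6 RPM. The crosslinked groups overlapped fully, with a log2 ratio of 0.10 ± 0.16 (SE) and an adjusted p of 0.758 by edgeR. Airn, which silences its neighbour Igf2r on the paternal chromosome, had 32.4 and 34.6 RPM in the crosslinked inputs with its features summed. The feature named Airn had 7.43 and 8.01 RPM there and 6.64 and 6.02 RPM in the pull-downs. The log2 ratio of this feature was -0.20 ± 0.15 (SE), with an adjusted p of 0.486 by edgeR. The other 4 features of the gene had log2 ratios between -0.19 and -0.16.

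Tug1, a broadly expressed lncRNA, had 6 member features with fitted log2 ratios between -0.62 and 0.26. The feature with most reads, Tug1-3, had 8.63 and 6.61 RPM in the crosslinked inputs and 5.75 and 5.35 RPM in the pull-downs, with an adjusted p of 0.297 by edgeR. The lowest adjusted p of a Tug1 feature was 0.0884. Emx2os, the RNA opposite the homeobox gene Emx2, had 2.12 and 1.14 RPM in the crosslinked inputs and 1.80 and 1.07 RPM in the pull-downs. Wt1os-2, from the RNA opposite the Wilms tumour gene Wt1, had 1.92 and 2.04 RPM in the inputs and 1.80 and 1.61 RPM in the pull-downs. The groups overlapped for Emx2os and did not for Wt1os-2, and neither passed the test, with adjusted p of 0.917 and 0.791 by edgeR.

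The other members with most reads were also not called. Gm45904 had 94.1 and 77.6 RPM in the crosslinked inputs and 69.4 and 57.3 RPM in the pull-downs, with 52.0 and 24.4 RPM in the non-crosslinked pair, and an adjusted p of 0.355 by edgeR. 2900060B14Rik, within Clasp1, had 47.2 and 26.4 RPM in the crosslinked inputs and 19.2 and 17.9 RPM in the pull-downs, with an adjusted p of 0.118. Gm26636 had 17.2 and 31.6 RPM in the inputs and 41.6 and 47.6 RPM in the pull-downs, with an adjusted p of 0.124, and its highest value, 53.0 RPM, was in the non-crosslinked pull-down. In each of the 3 the crosslinked groups did not overlap, but none of the 3 passed the test. Without crosslinked input 2, 2900060B14Rik was called lower (log2 ratio -1.24, adjusted p 0.0129 by edgeR) and Gm26636 higher (1.48, adjusted p 0.00993). Gm12905 and 4732471J01Rik-4 had fitted log2 ratios of -0.41 and -0.27.

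Reads of protein-coding genes were set beside those of the genes of the members' classes that overlap them, with features summed per gene. Such values existed for 97 pairs. Across the pairs, which share libraries and often a locus, the log2 ratios had a Pearson correlation of 0.09 and a Spearman correlation of 0.17. The protein-coding genes overlapped by the 29 genes called higher had a median log2 ratio of -0.14, between -0.53 and 1.28. Of these 29 partners only Kcnd3 had a log2 ratio of at least 1. The other partners with such a ratio overlap genes that were not called: Chrm3 with 3.57 (Gm26861), Igf2r with 2.89 (Airn) and Bfsp2 with 2.10 (5830418P13Rik).

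**Figure D4:**
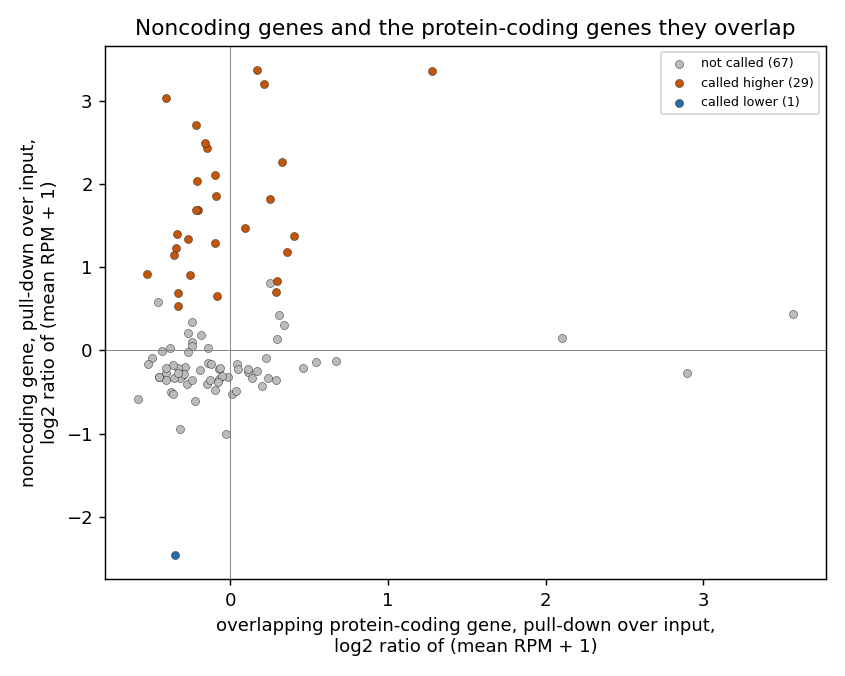
Each point is 1 of 97 genes of the asRNA and lncRNA classes, with the log2 ratio of crosslinked pull-down over input of the protein-coding gene it overlaps most on the x axis and its own on the y axis, both from mean RPM + 1. The partners of the genes called higher lie between -0.53 and 1.28, and the 3 points farthest to the right belong to genes that were not called.

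Over all features of a class, members or not, asRNA took 0.187% and 0.150% of reads in the crosslinked inputs (95% Wilson intervals 0.185% to 0.189% and 0.149% to 0.152%) and 0.133% and 0.125% in the pull-downs (0.131% to 0.135% and 0.123% to 0.127%). The means were 0.169% ± 0.0256 and 0.129% ± 0.00581 (SD, n = 2 each), a ratio of 0.766, and the non-crosslinked pair had a ratio of 0.569. B930036N10Rik held 40.9% and 34.2% of the asRNA reads of the crosslinked inputs and 56.5% of those of the non-crosslinked input. Without it, a setting chosen after seeing the data, the asRNA shares were 0.105% in the inputs and 0.129% in the pull-downs. The ratio was then 1.23, and 1.31 in the non-crosslinked pair, so that 1 gene set the direction of the class with and without crosslinking. The lncRNA class took 0.0115% and 0.00872% of reads in the crosslinked inputs (95% Wilson intervals 0.0110% to 0.0120% and 0.00830% to 0.00916%). In the pull-downs it took 0.0186% and 0.0251% (0.0179% to 0.0192% and 0.0243% to 0.0259%). The means were 0.0101% ± 0.00194 and 0.0218% ± 0.00463 (SD, n = 2 each), a ratio of 2.16, with 1.47 in the non-crosslinked pair. Gm11280 held 26% and 47% of the lncRNA reads of the crosslinked pull-downs and 7.59% and 2.37% of those of the inputs. Without it, also a setting chosen after seeing the data, the ratio was 1.42, and 1.38 in the non-crosslinked pair. The inputs did not overlap the pull-downs in either class, and the two-sided exact permutation p was 0.333 for each, the smallest that 2 against 2 libraries allow.

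How the ratios in the authors' deposited table were computed is not given in the sources used here, and that table lists 203 of the 242 members. Of the 54 members called higher it lists 28, so that its median leaves out 26 of them. In the authors' deposited table the median ratio of these members was 1.20, against 1.37 over all 216085 features listed, and 152 of them had a ratio above 1. The authors' deposited table gives 55.6 for Gm11280, 33.3 for 1700094J05Rik, 0.129 for Snhg9 and 0.020 for B930036N10Rik.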

How the data were processed

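Per the submitters' processing notes, reads were handled with bcl2fastq 2.19, STAR 2.5.2b and bedtools 2.29.0 on the mm10 build; parameters, annotation source, strand use and removal of PCR duplicates are not given in the sources used here. For each of the 6 libraries the authors deposited expected counts per annotated feature, in which reads matching several features are split into fractions, and the same values as RPM of all reads. The authors' deposited table of the series holds 1 ratio per feature.

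Expected counts were rounded to whole numbers. The quasi-likelihood test of edgeR 4.0.16 (R 4.3.3) compared the 2 crosslinked pull-downs with the 2 crosslinked inputs over 39872 features, with annotated reads as library sizes, no further factors and Benjamini-Hochberg adjustment. Reads without annotation (6.99% to 14.4% of a library) stayed out of library sizes and tests. Descriptive ratios use log2(RPM + 1), and the added 1 makes changes of low features look smaller. For class shares the test was an exact permutation test, two-sided. The non-crosslinked groups have 1 library each and no replicate check.

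The text names up to 20 members called higher by size, those called lower, the 10 with the highest means in crosslinked inputs and in pull-downs, and the members of the role lists. The members and lists were chosen with earlier results of these data known. Alternatives were other filters, pseudocounts, TMM factors, library sizes, DESeq2 1.42.0, limma 3.58.1, a replicate block, rRNA left out, identical features once, all 6 libraries in 1 fit, and each crosslinked library left out.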

Additional observations from a re-analysis of the deposited data

Results flagged for a closer look

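In 5 of the 54 members called higher (9.26%, against 4.17% of all features called higher), both crosslinked pairs had a log2 ratio of pull-down over input above 0 while the single non-crosslinked pair had one below 0, on the log2(RPM + 1) scale. These non-crosslinked ratios were -0.10 for 1700094J05Rik, -0.085 for 4933424L21Rik, -0.018 for Gm44206, -0.17 for 2310014F06Rik and -0.16 for Gm16675. Apart from 1700094J05Rik they were named after their values were seen. The difference itself was tested in the fit of all 6 libraries, and by edgeR none passed, with adjusted p of 0.472, 0.553, 0.445, 0.335 and 0.362 in the same order. The 5 were picked by this difference, so the test is no independent evidence on it.

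The reads behind the non-crosslinked ratios were few. 1700094J05Rik had 1 read in the non-crosslinked input and 0 in the pull-down, and 4933424L21Rik had 2 and 1. Gm16675 had 4 and 2 reads, Gm44206 had 16.5 and 15, and 2310014F06Rik had 20.5 and 15.5. 2310014F06Rik has a second member feature, and with its features summed the non-crosslinked log2 ratio of the gene was -0.0021 (1.98 RPM in the input and 1.97 RPM in the pull-down). 4933424L21Rik had 0.344 and 0.0543 RPM in the crosslinked inputs and 1.12 and 2.97 RPM in the pull-downs, and 2310014F06Rik had 2.26 and 2.17 RPM in the inputs and 4.56 and 4.46 RPM in the pull-downs. For 2310014F06Rik the adjusted p of the crosslinked comparison was 0.00593 by edgeR. 1700094J05Rik, 4933424L21Rik and Gm16675 had input means under 1 RPM and became members only through their pull-downs.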

How the results depend on the processing

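The count of 54 members called higher stayed between 48 (DESeq2) and 58 (rRNA left out) in several alternatives. The others were TMM factors, the other library sizes, identical features counted once, all 6 libraries in 1 fit, limma, the replicate block (50) and features summed per gene (57 of 197 genes). The same call took 2516 of 38325 features with DESeq2 and 2529 of 39872 with the replicate block. It took 2749 of 39872 with TMM factors and 2522 of 39610 with rRNA left out. No share over all features is given for the summed genes. With a filter of 0.5 RPM the count was also 54, against 4185 of 77398 features, but the members there were the same 242. The count was 8 of 42 with a filter of 5 RPM, 0 without a filter and 34 with more than 3 reads in both inputs. Without a filter 942743 features were tested and none of any class was called.

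The count of 3 members called lower became 5 with unannotated reads in the library sizes (2.07%, against 5.56% of all features tested), 6 with the replicate block (2.48%, against 4.15%), 6 with limma (2.48%, against 6.01%) and 0 without a filter. Leaving out a library gave 4 to 6, with 6 without crosslinked input 2 and 5 without crosslinked pull-down 1. Under the replicate block the 2 Tug1 features with identical counts passed, and Gm11280 and 0610038B21Rik no longer did. The replicate numbers were not shown to pair the libraries: with 2 pairs, the deviations of same-numbered libraries correlated at 0.11 over all features tested and at -0.06 over the members. DESeq2 tested 240 members, and 2 had no adjusted p.

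The members' median log2 ratio of -0.11 became -0.16 with a pseudocount of 0.1 RPM, -0.043 with 5 RPM, -0.073 with a filter of 0.5 RPM, -0.27 with one of 5 RPM and 0.092 when centred on all features tested. Leaving out a library gave -0.18 to 0.020, and it was above 0 without crosslinked input 1. The members' median of fitted ratios went from -0.071 to 0.13 with TMM factors, 0.13 with DESeq2, 0.037 with rRNA left out, 0.039 without crosslinked pull-down 2 and 0.11 without crosslinked input 1. TMM factors moved that of all features from -0.21 to -0.0044. The asRNA ratio of 0.766 ran from 0.692 to 0.858 with a library left out and turned to 1.23 without B930036N10Rik, and the lncRNA ratio of 2.16 ran from 1.84 to 2.50 and was 1.42 without Gm11280. For the 48 members named by rule, 661 of the alternative values kept the call or its absence, 29 lost and 4 gained the call, and no value called in either fit changed sign. Features near 1 RPM rest on few reads, which limits the precision of their ratios. Where no cause is named above, the cause was not tested.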
